A study of Mus musculus with 30 samples.

Results

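The mouse mitochondrial genome is a small circular DNA with 37 genes, and each of the 37 was found among the 46078 genes of the count table by the mt- prefix of its symbol. They comprised 13 protein-coding genes, 2 rRNA genes and 22 tRNA genes. Their counts are described here in 30 RNA-seq libraries of microglia from C57BL/6 mice. Microglia are brain and spinal cord macrophages. The mice were naive or had experimental autoimmune encephalomyelitis (EAE), an immune attack on myelin that serves as a model of multiple sclerosis. The study compared microglia with and without Atg7, an enzyme of autophagosome formation, and microglia of young and old animals.

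The 8 groups were naive WT, naive KO and naive old mice, WT and KO mice at day 21 of EAE, and WT, KO and old mice at day 35. Day 21 WT and day 35 old had 3 libraries each and the other groups 4 each. WT libraries came from young Atg7wt/wt Cx3cr1CreERT2 mice and KO libraries from young Atg7fl/fl Cx3cr1CreERT mice, with the Cre drivers spelled as in the labels. The labels describe 3 tamoxifen treatments of 4 mg for both genotypes, 48 h apart, so that WT animals also carried the Cre driver and received the drug. EAE was started at least 18 days later with a subcutaneous injection of recombinant mouse myelin oligodendrocyte glycoprotein (residues 1 to 125) and intraperitoneal pertussis toxin. The old mice carried the Atg7 WT label. Their age in weeks, any Cre driver and any tamoxifen are not stated in the sources used here. Cx3cr1 also drives Cre in border macrophages and in some monocytes, and the cells were sorted as live, CD11b+, intermediate for CD45, Ly6G- and/or eYFP+. Lysates of female and male animals were pooled 1:1. The labels did not state the number of animals behind a library, so p-values measure only the spread between these libraries. Count columns were named by a single number in each naive old library and by joined numbers in each naive WT library. If these numbers are animals, pooling differed between these groups and cannot be told apart from age in naive mice.

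Mitochondrial DNA is transcribed from both strands into long precursors by the polymerase POLRMT with the factor TFAM, and the tRNAs that punctuate the precursors are cut out to release the other RNAs. The rRNAs build the mitochondrial ribosome, and the mRNAs encode core subunits of respiratory complexes I, III and IV and of ATP synthase (complex V). The remaining subunits of those complexes, and every factor that transcribes, processes and translates mitochondrial RNA, are encoded in the nucleus. Autophagy, for which ATG7 activates the ubiquitin-like conjugation machinery, can remove whole mitochondria (mitophagy), and microglia are known to alter their energy metabolism when activated.

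The 37 genes gathered 12567267 counts in the 30 libraries. The rRNAs mt-Rnr1 (12S, 4344775 counts) and mt-Rnr2 (16S, 7110745 counts) made up 91.2% of them, the protein-coding genes 8.82% and the tRNAs 0.0226%. Per kilobase of gene, mean CPM (counts relative to library totals that edgeR had adjusted by TMM) were 21980 for mt-Rnr1 and 21678 for mt-Rnr2, so the 2 rRNAs had nearly equal counts once length was taken into account. Any removal of rRNA during library preparation was not examined, so counts of the rRNAs are not levels in the cell. Among the mRNAs the same per-kilobase measure was highest for mt-Cytb (cytochrome b of complex III) at 1127, followed by mt-Co1 (catalytic subunit of complex IV) at 898, mt-Nd1 at 849, mt-Nd2 at 487, mt-Nd5 at 451 and mt-Nd4 at 353, all core subunits of complex I. The complex I subunit mt-Nd6, the single mRNA of the other coding strand, lay at 99.1. Whether reads were counted by strand is not stated in the sources used here. The library kit keeps strand, and mt-Nd6 shares 14 bases with mt-Nd5 on the opposite strand.

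A stretch of the genome was close to empty in the count table. The 11 genes between mt-Co1 and mt-Nd4 held 517 counts together, nearly all of them in mt-Nd3 (complex I). No count was listed in any library for mt-Co2 (complex IV), mt-Atp8 and mt-Atp6 (ATP synthase) or mt-Nd4l (complex I), and mt-Co3 (complex IV) had 2. With 4712803 to 11034565 counts per library, a count of 0 allows up to 0.637 CPM in the shallowest and 0.272 CPM in the deepest library (3 counts each, counting error alone). Comparison of the mitochondrial transcripts with annotated nuclear transcripts of GRCm38 found 7 unprocessed pseudogenes on chromosome 1, between positions 24611535 and 24616197 of the minus strand, that match the mitochondrial genome from base 6390 to base 11042. The matching stretch covered the last 483 bases of mt-Co1, the first 876 bases of mt-Nd4 and nearly the whole of mt-Co2, mt-Atp6, mt-Co3, mt-Nd3 and mt-Nd4l, with no mismatch for mt-Co2, mt-Atp6, mt-Co3, mt-Nd4l and the mt-Nd4 part. How the authors counted reads that align equally well to more than 1 place is likewise not stated, and the part of this copy in the missing counts was not tested.

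Within the matched transcripts the chromosome 1 copy differed from the mitochondrial sequence at 2 bases, and both stretches are shown because only a read across such a base carries a difference between them. Capitals mark the differing base, and positions count from 1 at the start of the gene. The substitution was T3C in mt-Nd3 (chrM:9459-9491, plus strand) and A1066T in mt-Co1 (chrM:6390-6423, plus strand), with the mitochondrial base first and the base of the copy second.
mt-Nd3: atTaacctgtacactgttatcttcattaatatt
Gm28438: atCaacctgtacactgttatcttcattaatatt
mt-Co1: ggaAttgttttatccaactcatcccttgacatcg
Gm29216: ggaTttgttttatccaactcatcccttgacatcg
The copies themselves held few counts. Gm28437, the copy of mt-Co3, had 499 counts over the 30 libraries and Gm28661, the copy of mt-Co2, had 159, while Gm28438 had 14, Gm29216 had 6, Gm10925 had 5 and Gm28439 had 5. Copies of lower identity elsewhere, such as Gm13340 on chromosome 2 (97.61% identical to mt-Co1, 236 counts) and Gm11410 on chromosome 4 (92.91% identical to mt-Cytb, 69 counts), also stayed far below the mitochondrial genes. Counted over the bases outside the chromosome 1 match alone, mean CPM per kilobase would be 1306 for mt-Co1 and 970 for mt-Nd4, so the order of the mRNA levels depends on how shared reads were counted.

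After the filter on low counts, 14 of the 37 genes were tested: both rRNAs, 8 mRNAs (mt-Nd1, mt-Nd2, mt-Nd3, mt-Nd4, mt-Nd5, mt-Nd6, mt-Co1 and mt-Cytb) and 4 tRNAs (mt-Tv, mt-Tl1, mt-Tm and mt-Tp). Of the other 23 genes, 5 were the mRNAs of the empty stretch and 18 were tRNAs, of which 7 had no count and 11 were counted but fell below the filter. The tRNA genes mt-Tv (valine), mt-Tl1 (leucine) and mt-Tp (proline) each passed the test in at least 1 comparison described below, and their sequences are given as RNA-sense DNA letters from the GRCm38 annotation. mt-Tv lies between the 2 rRNA genes (bases 1025 to 1093), mt-Tl1 follows mt-Rnr2 (bases 2676 to 2750), and mt-Tp is read from the opposite strand (bases 15356 to 15422).
mt-Tv: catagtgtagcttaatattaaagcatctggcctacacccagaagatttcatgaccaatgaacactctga
mt-Tl1: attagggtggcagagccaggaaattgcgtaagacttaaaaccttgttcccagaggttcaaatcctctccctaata
mt-Tp: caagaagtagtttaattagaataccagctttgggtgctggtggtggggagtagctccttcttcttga
Depth was low for these: mt-Tv had 965 counts, mt-Tp 526 and mt-Tl1 456 over the 30 libraries. Counts per gene do not separate mature tRNAs from uncut precursors, so changes of these genes need not be changes of the mature tRNAs.

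Some libraries stood apart from their groups. Whole-gene Atg7 counts went against the genotype labels in EAE. In naive mice CPM was 26.6 to 40.1 in WT and 11.4 to 31.8 in KO, with overlap (log2 fold change -0.65, adjusted p = 0.516). At day 21 it was 19.8 to 25.3 in WT and 31 to 36.9 in the libraries labelled KO (0.50, adjusted p = 0.303), and at day 35 21.3 to 23.8 in WT and 30.3 to 33.8 in the libraries labelled KO (0.53, adjusted p = 0.338). At both times each library labelled KO was above each WT library, although the test did not call the gene, so directions between KO and WT rest on the labels. Counts over a whole gene include exons outside a deleted part, so they do not check the labels. The third day 35 WT library carries a WT title but a KO knockout status. The 12 homeostatic microglia markers were detected in every library and summed to 10351 to 36011 CPM. The 14 neutrophil markers summed to 16917 CPM in naive WT 3 (2021 to 9459 in the other naive WT libraries) and to 32317 CPM in day 35 old 1 (692 and 2482 in the other day 35 old libraries), although Ly6G+ cells were sorted out; the neutrophil genes Ly6g and Elane were each at 0 in 7 of the 30 libraries. The RNA integrity number ranged from 8.50 to 10.0.

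Mitochondrial RNA took a smaller share of the counts in naive animals than at day 21 of EAE. The 2 rRNA genes took 1.93%, 3.12%, 6.2% and 2.21% of the counts in naive WT, 2.21%, 2.26%, 3.25% and 4.37% in naive KO and 4.40%, 3.60%, 4.11% and 3.05% in naive old libraries. At day 21 they took 5.75%, 7.29% and 7.64% in WT and 7.54%, 7.81%, 8.20% and 8.33% in KO. At day 35 their share was 4.05%, 4.42%, 5.47% and 5.28% in WT, 6.37%, 7.46%, 7.24% and 8.10% in KO and 8.08%, 6.68% and 8.13% in old libraries. Naive WT 3 was the exception among naive libraries and lay within the day 21 WT range, while the other naive libraries lay below each day 21 library. The 13 protein-coding genes took less than the rRNAs in each library, with group means of 0.317 ± 0.147% (SD, n = 4) in naive WT, 0.362 ± 0.128% (n = 4) in naive KO and 0.352 ± 0.0521% (n = 4) in naive old. They were 0.654 ± 0.0372% (n = 3) in day 21 WT and 0.797 ± 0.0363% (n = 4) in day 21 KO. At day 35 they were 0.525 ± 0.0750% (n = 4) in WT, 0.688 ± 0.0908% (n = 4) in KO and 0.63 ± 0.0916% (n = 3) in old mice. Shares over the members are given as values without a test. In such bulk libraries, more mitochondrial RNA per cell, less RNA from the nucleus and a change in which cells were sorted cannot be told apart. The part of any rRNA removal during library preparation in the rRNA shares was not tested.

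**Figure D1:**
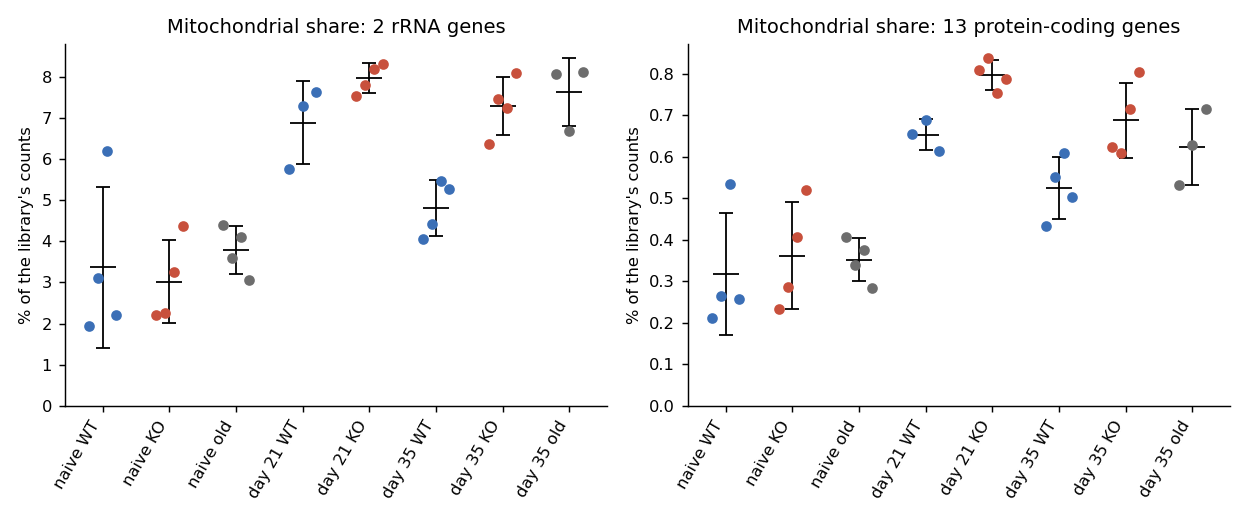
Each point is a library; the vertical axes give the percent of that library's counts in the 2 mitochondrial rRNA genes (left) and the 13 protein-coding genes (right), bars give the mean and SD, and colors mark WT, KO and old. Naive libraries lie below each day 21 library, except naive WT 3 for the rRNA share, and day 35 WT lies below day 35 KO for the rRNA share (4.05 to 5.47% against 6.37 to 8.10%).

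The comparison that moved most members was day 35 EAE against naive in old mice, in which 10 of the 14 tested genes rose and mt-Tv fell (edgeR quasi-likelihood test, adjusted p under 0.05 over all 13880 genes tested); of all genes tested, 10.4% were called higher and 8.03% lower. mt-Rnr1 had 16725, 14636, 15486 and 11442 CPM in the naive old libraries and 35110, 25488 and 30891 at day 35 (log2 fold change 1.07, SE 0.285, adjusted p = 0.0113). mt-Rnr2 had 29349, 20732, 28206 and 20025 CPM against 53525, 40968 and 49272 (0.96, SE 0.280, adjusted p = 0.0179). Each day 35 library was above each naive library for both rRNAs, and the library rich in neutrophil markers, day 35 old 1, was the highest of the 3.

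Among the mRNAs, mt-Co1 had 1061, 810, 937 and 706 CPM in naive old and 1786, 1687 and 1908 at day 35 (log2 fold change 1.03, SE 0.251, adjusted p = 0.00687). mt-Cytb had 1042, 892, 972 and 774 against 1282, 1514 and 1725 (0.71, SE 0.246, adjusted p = 0.0441). The complex I genes moved by similar amounts. mt-Nd1 went from 674, 498, 622 and 429 to 862, 970 and 1108 CPM (0.82, adjusted p = 0.0271), and mt-Nd2 from 401, 293, 390 and 260 to 467, 576 and 651 (0.75, adjusted p = 0.0379). mt-Nd4 went from between 252 and 367 to 478, 554 and 633 CPM (0.79, adjusted p = 0.0417), and mt-Nd6 from 50.0, 39.5, 40.2 and 23.1 to 63.6, 58.7 and 62.2 (0.68, adjusted p = 0.0432). mt-Nd5 had 666, 497, 652 and 500 CPM in naive old and 893, 879 and 966 at day 35 and missed the threshold (0.66, adjusted p = 0.0647). mt-Nd3, whose values rest on few counts, had 3.59, 1.75, 1.55 and 0.350 against 3.70, 4.02 and 3.47 CPM (1.01, adjusted p = 0.214) and was the 1 of the 8 tested mRNAs whose groups overlapped. Such overlap was not counted over all genes.

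Among the tRNAs in old mice, mt-Tp rose from 3.04, 2.19, 2.14 and 1.05 to 6.60, 5.73 and 6.37 CPM (log2 fold change 1.55, SE 0.535, adjusted p = 0.0428) and mt-Tl1 from 1.80, 1.46, 0.194 and 1.57 to 2.74, 3.78 and 3.91 (1.43, adjusted p = 0.0331). mt-Tv fell from 39.9, 9.77, 8.94 and 6.82 to 2.09, 4.39 and 4.05 CPM (-2.21, SE 0.676, adjusted p = 0.0247); the first naive old library was far above the rest, and without it the call was lost (-1.26, adjusted p = 0.163). The number of called members depended on single libraries. It was 7, 3, 7 and 5 when naive old 1, 2, 3 and 4 were left out in turn. It was 7, 5 and 2 when day 35 old 1, 2 and 3 were left out, and 1 when these 7 libraries were fitted alone. In the same comparison 7 of 9 tested astrocyte markers rose, and 6 of 12 homeostatic microglia and 8 of 10 border macrophage markers fell, with neutrophil markers summing to 7527 to 14314 CPM in naive old and 692 to 32317 at day 35; their part in the result was not tested.

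In young WT mice, 9 of the 14 tested members were higher at day 21 of EAE than in naive animals and none was lower (of all genes, 9.51% were called higher and 12% lower). The 9 were both rRNAs and the 7 abundant mRNAs, whose log2 fold changes ranged from 0.78 for mt-Nd5 to 1.24 for mt-Nd6 with a median of 1.07, against a median of -0.01 over all genes. mt-Nd6 had 22.2, 24.6, 44.0 and 22.4 CPM in naive WT and 48.6, 73.7 and 78.7 at day 21 (SE 0.237, adjusted p = 0.000568). mt-Co1 had 474, 637, 1414 and 561 CPM against 1613, 1821 and 1836 (1.19, SE 0.252, adjusted p = 0.00151). Naive WT 3 was the highest naive library for both genes and still lay below each day 21 library. At the other end, mt-Tv had 2.50, 12.7, 4.94 and 2.28 CPM in naive WT and 2.01, 3.37 and 1.59 at day 21 (-1.23, adjusted p = 0.220), and mt-Tm, the methionine tRNA, had 1.76, 1.41, 2.39 and 0.998 against 2.01, 2.34 and 2.62 (0.50, adjusted p = 0.597).

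At day 35, 6 of the 14 members were higher than in the same naive WT libraries and none was lower, where 8.40% of all genes were called higher and 10.7% lower. The largest changes were those of mt-Tl1, with 0.882, 0.704, 1.35 and 0.998 CPM in naive WT and 2.29, 2.89, 1.88 and 2.89 at day 35 (log2 fold change 1.30, SE 0.463, adjusted p = 0.0467), and mt-Nd6, with 49.5, 59.2, 56.5 and 58.0 CPM at day 35 (0.98, SE 0.224, adjusted p = 0.00432). Neither overlapped with naive WT. mt-Nd2, mt-Co1, mt-Nd4 and mt-Cytb made up the rest, with log2 fold changes from 0.66 to 0.76, and the rRNAs did not pass. The lowest fold changes were again those of mt-Tv (1.86, 0.456, 1.72 and 5.63 CPM at day 35; -1.15, adjusted p = 0.215) and mt-Tm (1.43, 0, 2.19 and 0.577 CPM; -0.65, adjusted p = 0.484). The count of 6 turned on single libraries. It rose to 10 once naive WT 3 was left out, and dropped to 1 when naive WT 1 or 4 was left out. It dropped to 2 with naive WT 2, day 35 WT 2 or day 35 WT 3 left out, and to 2 when day 35 WT 3 was moved to KO.

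The naive WT libraries that both comparisons share had higher levels of markers of other myeloid cells. Neutrophil markers summed to 2021 to 16917 CPM in naive WT, 700 to 725 at day 21 and 599 to 810 at day 35, and 13 of 14 were lower at each time. Of the 12 monocyte markers 7 were lower at day 21 and 8 at day 35, of the 10 border macrophage markers 8 were lower at each, and of the 12 homeostatic microglia markers 6 and 4 were lower. Without naive WT 3, the count at day 21 was again 9, with mt-Co1 at 1.66 and mt-Rnr2 at 1.54 on the log2 scale. With the 7 WT libraries fitted alone it was 4. The part of the remaining marker differences was not tested. Between day 21 and day 35 in WT, no member passed the test by edgeR or DESeq2 (2 at an unadjusted p under 0.05; 0.0648% of all genes called). mt-Rnr2 was the lowest but one, with 36045, 45143 and 50182 CPM at day 21 and 23509, 25389, 33749 and 32474 at day 35 (-0.61, SE 0.280, adjusted p = 0.706), without overlap.

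In KO mice, 9 of the 14 members were higher at day 21 than in naive animals and none was lower, where 22.5% of all genes were called higher and 22.7% lower. The 9 were again both rRNAs and the 7 abundant mRNAs. mt-Co1 had 526, 612, 881 and 1132 CPM in naive KO and 2401, 2435, 2166 and 2361 at day 21 (log2 fold change 1.57, SE 0.240, adjusted p = 8.15e-06). mt-Rnr1 had 7558, 7808, 11351 and 16178 CPM against 28963, 30322, 32153 and 32170 (1.53, SE 0.271, adjusted p = 4.59e-05). Each day 21 value lay above each naive value for these 9 genes, and 9 members were called without each of the 8 libraries in turn. Overlap between groups was not counted over all genes, so the separation of these 9 has no share to be read against. The lowest changes were those of mt-Tp, with 1.36, 1.16, 0.772 and 3.37 CPM in naive KO and 0.628, 0.557, 0.902 and 1.78 at day 21 (-0.73, adjusted p = 0.310), and mt-Tv (1.5, 1.93, 3.22 and 2.64 against 1.73, 0.928, 2.85 and 2.52; -0.19, adjusted p = 0.842). In this comparison 11 of 14 neutrophil markers and 11 of 12 homeostatic microglia markers were lower, and 3 of 6 tested T and NK cell markers were higher. Naive KO 4 had the lowest neutrophil (644 CPM) and monocyte (45 CPM) marker sums of the naive KO libraries. Its share of counts in mitochondrial rRNA, 4.37%, was the highest of that group (2.21 to 3.25% in the others) and below the 7.54 to 8.33% of day 21 KO. The part of the marker differences in the result was not tested.

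From day 21 to day 35 in KO mice, mt-Tp rose from the values above to 3.42, 2.40, 1.41 and 6.08 CPM (log2 fold change 1.75, SE 0.555, adjusted p = 0.0211), the 1 call among 14 members (13.3% of all genes were called higher and 11.7% lower). The groups overlapped, and the call was lost without day 21 KO 1, 2 or 3 and without day 35 KO 4. mt-Nd5 moved the other way without passing, from 1386, 1514, 1307 and 1362 to 874, 777, 944 and 1134 CPM (-0.58, SE 0.233, adjusted p = 0.0688), with no overlap. mt-Nd3 had 5.18, 2.78, 3.16 and 2.07 CPM at day 21 and 2.67, 2.40, 1.27 and 1.61 at day 35 (-0.73, adjusted p = 0.330). mt-Tm had 0.628, 1.11, 2.25 and 1.33 against 1.78, 1.05, 2.39 and 3.23 (0.66, adjusted p = 0.431). In this comparison 10 of 12 homeostatic microglia markers, 7 of 14 neutrophil markers, 5 of 5 erythroid markers, 8 of 8 neuron markers and 5 of 9 astrocyte markers were higher, and 6 of 6 T and NK cell markers were lower. Their part in the result was not tested.

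**Figure D2:**
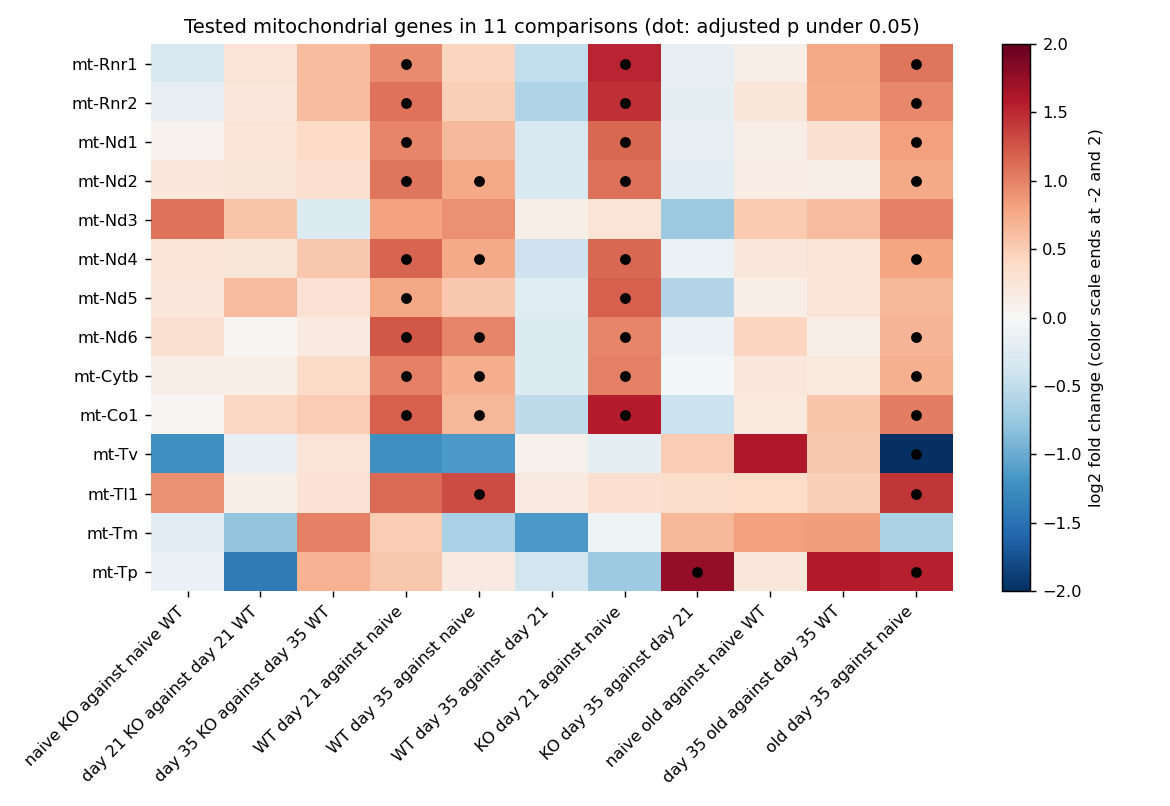
Colors give the log2 fold change of the 14 tested members (rows) in the 11 comparisons between groups (columns), with the scale ending at -2 and 2, and dots mark adjusted p under 0.05 in the edgeR test. Dots gather in the comparisons of EAE with naive animals; no dot lies in a comparison of KO with WT or of old with young WT.

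Nuclear genes for subunits of the same complexes did not follow the mitochondrial genes in EAE against naive animals. Between KO and WT in EAE, and between old and WT, both sets had median log2 fold changes above 0. Nuclear and mitochondrial mRNA medians for KO against WT were 0.26 and 0.24 at day 21 and 0.33 and 0.39 at day 35. For old against WT they were 0.39 and 0.19 in naive mice and 0.38 and 0.26 at day 35. In naive KO against WT they were -0.11 and 0.21. Of 74 tested nuclear subunit genes, 16 were lower and 0 higher at day 21 than in naive WT, a share of 21.6% against 12% of all genes called lower, with a median log2 fold change of -0.33 where the 7 abundant mitochondrial mRNAs had 1.07. At day 35 in WT, 28 were lower and 0 higher (37.8% against 10.7%, median -0.45, mitochondrial median 0.73). In old mice, 25 were lower and 0 higher at day 35 than in naive animals (33.8% against 8.03%; median -0.45, mitochondrial median 0.75). Among the genes with the lowest adjusted p, the complex I flavoprotein gene Ndufv2 had 22.8 CPM at day 21 in WT against 42.5 in naive WT (log2 fold change -0.89, SE 0.188, adjusted p = 0.00124). Others were Ndufb11 of complex I (day 35 WT, 11.7 against 20.3, -0.79, adjusted p = 0.00193), Ndufb9 of complex I (day 35 WT, 19.1 against 31.9, -0.73, adjusted p = 0.00600), and Ndufa5 of complex I (old mice, 11 against 21.6, -0.98, adjusted p = 0.00182).

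Split by complex at day 35 in WT, 14 of 36 complex I genes, 3 of 4 complex II genes, 3 of 9 complex III genes, 2 of 10 complex IV genes and 6 of 15 complex V genes were lower. Complex II has no subunit in mitochondrial DNA. In KO mice at day 21 the nuclear genes went both ways, with 5 higher and 6 lower of 74 (median 0.08) while the mitochondrial mRNAs had a median of 1.15. These were 6.76% and 8.11% of the subunit genes, below the 22.5% and 22.7% of all genes called higher and lower. Atp5g3, a subunit of the membrane ring of ATP synthase, was higher there (32.7 against 23.0 CPM, 0.51, adjusted p = 0.00422) and Uqcrc2, a core protein of complex III, lower (29.8 against 42.2, -0.51, adjusted p = 0.000775). The nuclear counts also moved with single libraries: at day 21 in WT 16 became 7 without naive WT 2, 5 without day 21 WT 1 and 5 without day 21 WT 2. The count of 28 at day 35 in WT became 13 or 15 when naive WT 2 or 3 was left out. It became 9 or 7 when day 35 WT 1 or 2 was left out. That of 25 in old mice became 12 without naive old 1, 12 without naive old 2, 5 without day 35 old 3 and 0 when the 7 old libraries were fitted alone. Without the filter on low counts, 16 were lower at day 35 in WT and 16 in old mice, and 12 were lower in old mice with RNA integrity in the model. In KO at day 21, the 5 higher became 9 with the groups alone, 3 without the filter and 2 to 5 when single libraries were left out (2 without naive KO 3 and 3 without naive KO 4, day 21 KO 1 or day 21 KO 4).

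**Figure D3:**
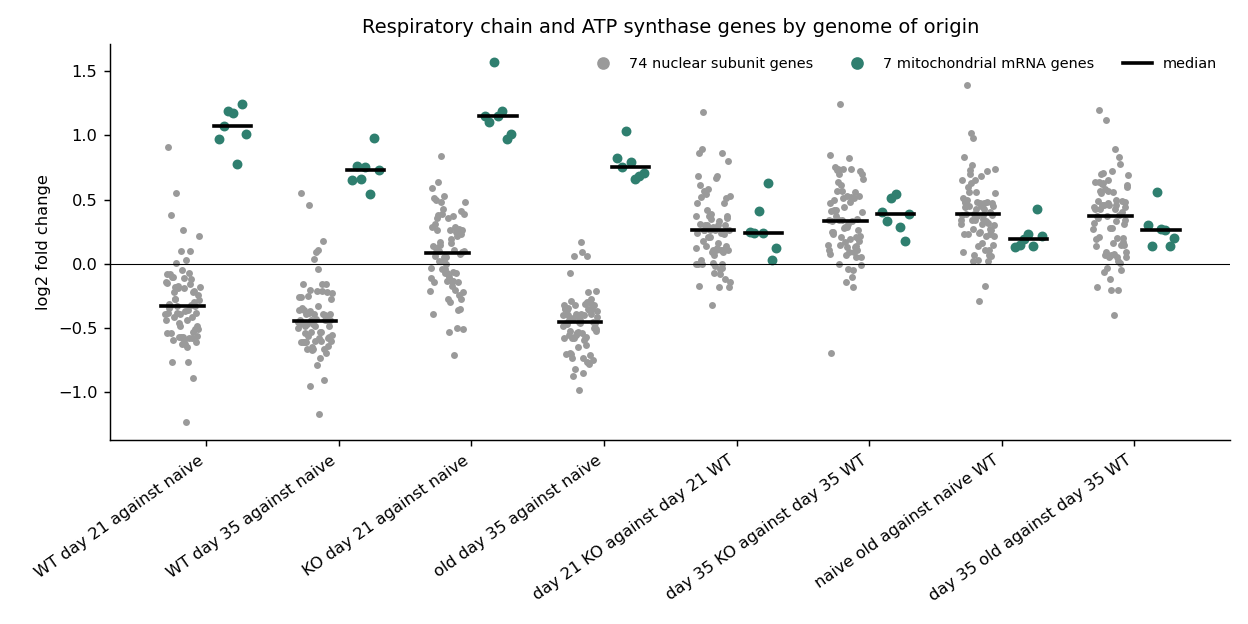
Points give log2 fold changes of 74 nuclear genes for subunits of the respiratory chain and ATP synthase (gray) and of the 7 abundant mitochondrial mRNAs (green) in 8 comparisons, with lines at the medians. In WT and old mice the nuclear medians lie below 0 (-0.33, -0.45 and -0.45) and the mitochondrial medians above it (1.07, 0.73 and 0.75) in EAE against naive animals. In the comparisons shown of KO or old with WT, both medians lie above 0 (nuclear 0.26 to 0.39, mitochondrial 0.19 to 0.39).

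Genes of the machinery that makes and reads mitochondrial RNA are read against the shares of all genes called higher and lower, which were 9.51% and 12% at day 21 in WT, 8.40% and 10.7% at day 35 in WT, 22.5% and 22.7% at day 21 in KO, and 10.4% and 8.03% in old mice. Of 9 tested genes for mitochondrial transcription, 1 was called in WT, at day 35 (Mrpl12, a ribosomal protein that also binds POLRMT, 9.55 against 13.6 CPM, log2 fold change -0.50, adjusted p = 0.0313). In KO at day 21, 1 was higher (11.1%) and 0 lower, and in old mice 0 were called. Of 32 RNA processing and decay genes, 4 were higher and 2 lower at day 21 in WT (12.5% and 6.25%), among them Elac2, which cuts the 3' ends of tRNAs (38.1 against 25.9 CPM, 0.55, adjusted p = 0.00136), and Fastkd2, needed for mt-Rnr2 (15.5 against 9.03, 0.79, adjusted p = 0.00483). At day 21 in KO, 5 were higher and 3 lower (15.6% and 9.38%), with Pnpt1, a nuclease that degrades mitochondrial RNA, at 44.4 against 25.5 CPM (0.80, adjusted p = 1.92e-06). For the same list, 5 were higher (15.6%) and 0 lower at day 35 in WT, and 1 was higher and 2 lower in old mice (3.12% and 6.25%). Of 77 mitochondrial ribosomal protein genes, 1 was higher and 4 lower at day 21 in WT (1.30% and 5.19%) and 2 higher and 6 lower at day 35 (2.60% and 7.79%). There were 4 higher and 12 lower at day 21 in KO (5.19% and 15.6%) and 2 higher and 8 lower in old mice (2.60% and 10.4%). Of 12 translation factors, 2 were called in these 4 comparisons, both at day 21 in KO and both lower (Taco1, an activator of mt-Co1 translation, -0.69, adjusted p = 0.00404, and Mrrf, a ribosome recycling factor, -0.64, adjusted p = 0.0228).

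Atg7 genotype called no member at any time. In naive animals the 7 abundant mRNAs had log2 fold changes of 0.03 to 0.30 between libraries labelled KO and WT, and no member passed by edgeR or DESeq2 (0 at an unadjusted p under 0.05; 0.288% of all genes called). mt-Nd3 had 1.32, 0, 2.24 and 1.28 CPM in naive WT and 0.955, 1.55, 3.47 and 4.99 in naive KO (1.08, adjusted p = 0.559), and mt-Tl1 had the values above for WT and 0.682, 1.64, 1.80 and 3.52 in KO (0.92, adjusted p = 0.553). At the low end mt-Tv and mt-Rnr1 had log2 fold changes of -1.22 (adjusted p = 0.569) and -0.32 (adjusted p = 0.743). mt-Rnr1 had 6959, 13780, 24695 and 8183 CPM in naive WT, and the other library values are given above. Each pair of groups overlapped.

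At day 21, 19.0% of all genes were called between KO and WT, and 0 of the 14 members were (2 at an unadjusted p under 0.05; DESeq2 called 1). mt-Nd5 had 974, 933 and 799 CPM in WT and 1386, 1514, 1307 and 1362 in KO, without overlap (log2 fold change 0.63, SE 0.254, adjusted p = 0.0843). mt-Tp had 1.34, 2.20 and 4.21 CPM in WT and 0.628, 0.557, 0.902 and 1.78 in KO (-1.42, SE 0.588, adjusted p = 0.0897). mt-Nd3 had 2.18, 2.05 and 2.43 CPM in WT (0.56, adjusted p = 0.529) and mt-Tm 2.01, 2.34 and 2.62 (-0.79, adjusted p = 0.392). When these 7 libraries were fitted alone, 7 members were called, with mt-Nd5 at 0.61 and mt-Co1 at 0.40 on the log2 scale. The remaining libraries then no longer enter the estimate of the spread. The 19.0% of all genes belongs to the main fit and the share in this smaller fit is not given, so the count of 7 cannot be read against it. In the main fit 11 of 12 homeostatic microglia markers were lower and 6 of 12 monocyte markers higher in KO, whose sums were 10974 to 11713 CPM and 2339 to 3202 CPM, against 20525 to 23915 and 209 to 536 in WT; their part in these differences was not tested.

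At day 35, 2.62% of all genes were called between KO and WT and 0 of the members (4 at an unadjusted p under 0.05, all 4 higher in KO; DESeq2 called 0). The 7 abundant mRNAs were 0.18 to 0.54 higher on the log2 scale, with a median of 0.39 against 0.00 over all genes. mt-Co1 had 1035, 1212, 1380 and 1249 CPM in WT and 1637, 1686, 1809 and 1832 in KO, without overlap, and was the 1 member called when the 8 libraries were fitted alone (0.53, adjusted p = 0.0185). Of the members with the highest fold changes, mt-Tm had 1.01 (adjusted p = 0.348) and mt-Tp 0.70 (adjusted p = 0.468), and of the lowest, mt-Nd3 had -0.28 (adjusted p = 0.812) and mt-Nd6 0.18 (adjusted p = 0.677; 66.6, 61.7, 50.0 and 75.3 CPM in KO). Of markers of other cell types, 5 of 14 for neutrophils, 1 of 5 for erythroid cells and 0 of 12 for monocytes were called higher in KO. Monocyte markers summed to 1011 to 1475 CPM in KO and to at most 347 in WT, erythroid markers to at least 55.1 in KO and 12.8 to 44.3 in WT, and neutrophil markers to 667 to 3862 in KO and 599 to 810 in WT. Their part in the differences was not tested. The total mitochondrial share was 1.5 times as high in KO, with the groups apart, but the protein-coding genes alone gave a log2 ratio of 0.39 in place of 0.58. EAE scores at day 35 differed as well, at 1.25 ± 0.289 (SD, n = 4) in WT and 2.75 ± 0.204 (n = 4) in KO. Each KO score was above each WT score, so genotype and EAE score were not separated at this time. The part of the score in these differences was not tested. Day 35 WT 3, which the knockout status labels KO, had a total share of 6.08%, the highest of its group and below the lowest KO library (7.0%). Among the nuclear subunit genes 8 of 74 were higher and 0 lower (Cox4i1 of complex IV, 94.5 against 56.1 CPM, 0.75, adjusted p = 0.0248), and at day 21 there were 10 higher and 0 lower (Cox5a of complex IV, 21.5 against 9.47, 1.18, adjusted p = 0.000402). The 8 were 10.8% of the subunit genes, where 248 of all 13880 genes were called higher. The 10 were 13.5%, where 1274 of all 13880 genes were called higher. Both counts of subunit genes moved with single libraries. That of 8 became 0 with day 35 WT 2 or day 35 KO 3 left out, 1 with day 35 WT 1 and 2 with day 35 WT 4. It became 5 and 4 with day 35 KO 1 and 4 left out, and 12 with day 35 WT 3 left out. That of 10 became 5, 4 and 5 with day 21 WT 1, 2 and 3 left out, and 6 and 5 with day 21 KO 2 and 3. Other settings moved them too: the 8 became 1 without the filter on low counts, 2 with the compared groups alone and 14 by DESeq2's Wald test, and the 10 became 18 with the compared groups alone. The test of whether the KO difference at day 35 departed from that at day 21 called 0 members (2 at an unadjusted p under 0.05, 2.67% of all genes), with mt-Tp at 2.12 (SE 0.780, adjusted p = 0.131). The test against the naive difference also called 0 (2 at an unadjusted p under 0.05; 0.367% of all genes). DESeq2 called 0 in both.

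Age called no member either. In naive mice old and young WT libraries differed in 8.18% of all genes and in 0 of the 14 members by edgeR and by DESeq2 (1 at an unadjusted p under 0.05). The lowest fold changes were those of mt-Rnr1 (log2 fold change 0.12, adjusted p = 0.851) and mt-Nd1 (0.13, adjusted p = 0.800), and the highest were those of mt-Tm (0.82, adjusted p = 0.415) and mt-Tv (1.60, adjusted p = 0.0947), with the library values given above. Without naive WT 3, which stood high among the young naive libraries, 3 members were called higher in old mice (mt-Rnr2 at 0.71, mt-Co1 at 0.66 and mt-Nd6 at 0.73 on the log2 scale). Without naive WT 2, mt-Tv was called. The 8.18% of all genes belongs to the main fit, and the shares in these smaller fits are not given. Of the nuclear subunit genes 16 of 74 were higher in naive old mice and 0 lower (21.6%), with Cox7a2 of complex IV at 27.9 against 13.7 CPM (1.02, adjusted p = 0.00422). Of all 13880 genes, 698 were called higher. The count of 16 became 4 with naive WT 1 left out and 5 with naive WT 4 or naive old 1 left out. It became 7 with naive old 2 and 24 with naive old 4 left out, 10 without the filter and 9 with the groups alone. At day 35 old and young WT libraries differed in 9.45% of all genes and again in 0 members (4 at an unadjusted p under 0.05; DESeq2 called 1). mt-Tp had 6.60, 5.73 and 6.37 CPM in old and 0.858, 2.43, 2.35 and 2.60 in WT, without overlap (1.59, SE 0.534, adjusted p = 0.0565), and mt-Tm had 1.13, 2.32 and 2.17 CPM in old (0.84, adjusted p = 0.476). mt-Nd2 and mt-Nd6 were each at 0.14 (adjusted p = 0.801 and 0.782). Of the nuclear subunit genes 9 of 74 (12.2%) were higher and 0 lower, where 1043 of all 13880 genes were called higher. Of the subunit genes 0 were called without day 35 old 1, 2 without day 35 WT 2, 3 without day 35 WT 1 and 24 without day 35 old 3. The 9 became 0 with the groups alone, 4 with index in the model or without the filter, 14 with day 35 WT 3 moved to KO and 15 by DESeq2. Here 13 of 14 neutrophil markers and 9 of 12 monocyte markers were higher in old mice; without day 35 old 1 the member count stayed at 0. EAE scores at day 35 were 2.83 ± 0.144 (SD, n = 3) in old mice and 1.25 ± 0.289 (n = 4) in WT, without overlap. The part of the score in the age differences was not tested. The test of the age difference at day 35 against that in naive mice called 0 members by edgeR and DESeq2 (0 at an unadjusted p under 0.05; 0.0432% of all genes).

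**Figure D4:**
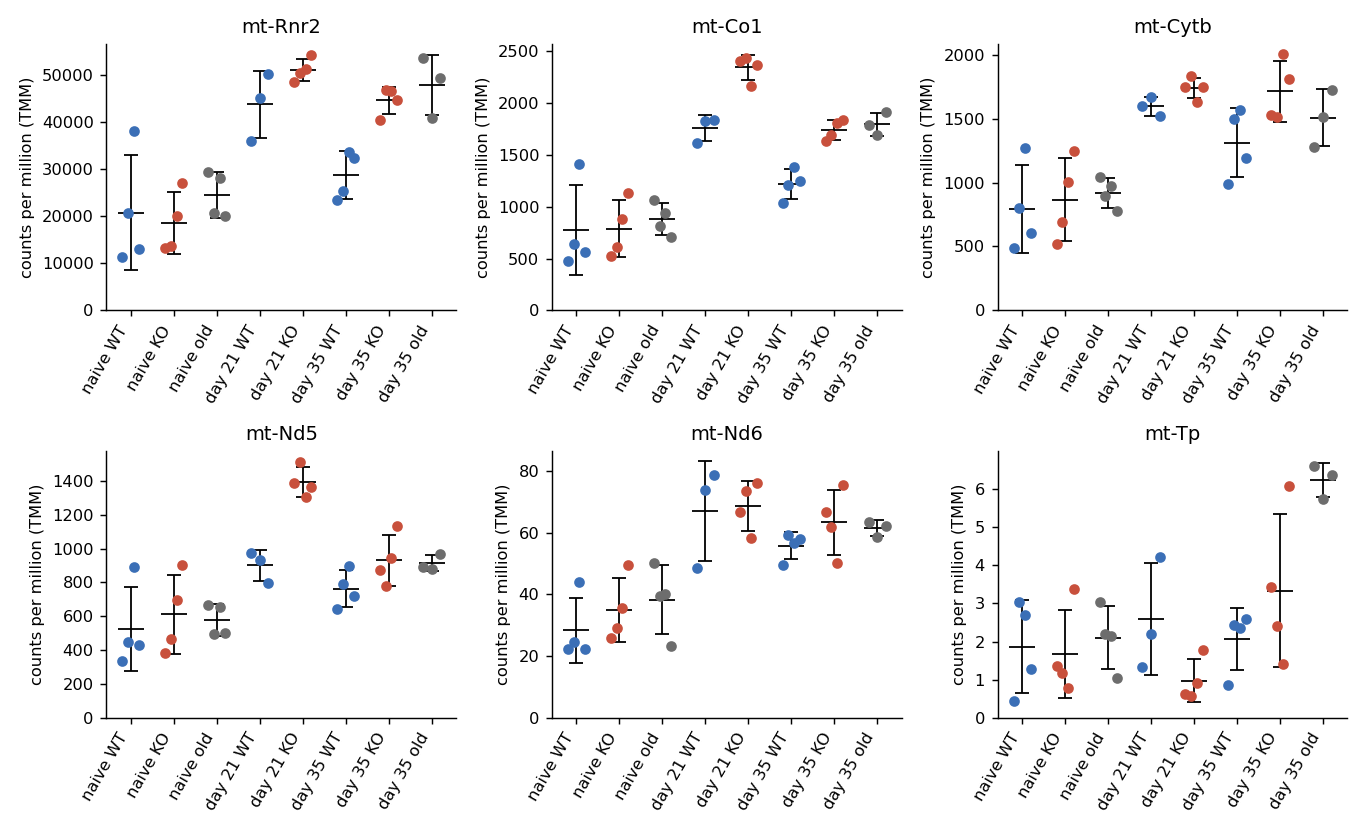
Each point is a library's TMM-scaled CPM for 6 members, with the mean and SD per group; vertical axes start at 0. Naive WT 3 has 38017 CPM of mt-Rnr2, above each day 35 WT library (23509 to 33749), mt-Nd5 is highest in day 21 KO (1307 to 1514), and mt-Tp has its highest group mean in day 35 old (5.73 to 6.60).

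Among the abundant mRNAs, mt-Nd5 made up 16.7 to 17.5% of the protein-coding mitochondrial counts in day 21 KO, 12.6 to 15% in day 21 WT and 12.7 to 15.4% in day 35 KO, so that day 21 KO lay above both without overlap. Its share was as high in naive KO (17.1 to 17.6%), and naive WT (15.3 to 17.4%) and naive old (14.9 to 17%) overlapped with day 21 KO. The differences relative to the protein-coding sum were 0.31 (SE 0.281, adjusted p = 0.515) against day 21 WT and -0.31 (SE 0.259, adjusted p = 0.466) from day 21 to day 35 in KO. When each gene was tested relative to the summed counts of the 13 protein-coding genes in place of the whole library, none of the 7 abundant mRNAs and neither rRNA was called in any of the 14 comparisons, and the relative log2 fold changes of the mRNAs lay between -0.31 and 0.33 in the 11 comparisons between groups. These 7 genes make up most of the sum they are scaled by, which holds their relative changes near 0 on balance. The calls on this scale among the 14 members were all of tRNAs. mt-Tv was lower relative to the mRNAs at day 21 in WT (-2.36, adjusted p = 0.00496), at day 35 in WT (-1.88, adjusted p = 0.0156) and in old mice (-2.94, adjusted p = 0.00229), and mt-Tm at day 35 in WT (-1.39, adjusted p = 0.0406) and in old mice (-1.47, adjusted p = 0.0377). On this scale 72.8%, 59.2% and 48.2% of all genes were called lower in those 3 comparisons, so a lower call there was the common case. The mt-Tv value in old mice includes naive old 1, with 39.9 CPM against 6.82 to 9.77 in the other naive old libraries. Leaving out single libraries was not done on this scale. mt-Tp was lower relative to the mRNAs at day 21 in KO against naive (-1.93, adjusted p = 0.00112; 73.2% of all genes called lower) and against WT (-1.73, adjusted p = 0.0379; 6.79%), and higher at day 35 than at day 21 in KO (1.99, adjusted p = 0.00575; 10.1% called higher).

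Proportions between RNA classes also differed among libraries. There were 7.88 to 15.2 rRNA counts per protein-coding count over the 30 libraries, with group means from 8.43 ± 0.747 (SD, n = 4) in naive KO to 12.4 ± 2.44 (SD, n = 3) in day 35 old, where day 35 old 1 had 15.2. The ratio of mt-Rnr2 to mt-Rnr1 counts was 1.42 to 1.82, with group means between 1.57 and 1.74. mt-Nd6, the mRNA of the other strand, made up 0.678 to 1.24% of protein-coding counts, with group means from 0.836 ± 0.0742% (SD, n = 4) in day 21 KO to 1.11 ± 0.131% (SD, n = 4) in day 35 WT.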

How the data were processed

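Gene counts from SMARTer Stranded Total RNA-Seq Pico libraries were deposited as whole numbers for 46078 genes. Per the submitters' processing notes the authors used CASAVA, bcl2fastq and STAR with GRCm38; versions, strand setting and the handling of multiply aligned reads are not stated in the sources used here. EAE scores and RNA integrity numbers are scores in the authors' deposited sample table. Count columns were tied to samples through that table's plate wells (30 of 30 titles matched their group), and 2 of 32 count columns were not used.

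filterByExpr (count 10, total 15) kept 13880 genes, which were scaled by TMM and fitted with edgeR 4.0.16 in R 4.3.3 (robust quasi-likelihood F test, 1 mean per group, 30 libraries, 22.0 residual degrees of freedom). P-values were adjusted by Benjamini-Hochberg over all genes within each of 14 contrasts, and a gene was called below 0.05. A second fit took the summed mitochondrial protein-coding counts as library size. CPM are TMM-scaled. Alternatives were DESeq2 1.42.0 (Wald test and size factors), scaling on nuclear genes, no filter, index or RNA integrity in the model, moving day 35 WT 3 to KO, fitting the compared groups alone, and leaving out each library; naive WT 3 and day 35 old 1 were left out together as an alternative chosen after seeing the data. Shares over the members have no test. Nuclear copies were found with BLAST 2.17.0 (at least 90% identity over 100 bases) in GENCODE M21 transcripts on GRCm38, from which symbols, coordinates and sequences also came; 45143 genes (98.0%) had a symbol.

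The members and gene lists were chosen with earlier results of these data known. Named were the protein-coding and rRNA genes in the comparison that moved most members, elsewhere the 2 lowest and 2 highest fold changes, tested tRNAs, up to 4 genes of lowest adjusted p per list and the nuclear copies with most counts; other members were named after their values were seen.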

Additional observations from a re-analysis of the deposited data

Results flagged for a closer look

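In 11 sets of 4 values, which were 8.33% of the sets checked, a library's gap to the nearest of the others, divided by the range of the 4, was above Dixon's 95% critical value. Chance gives about 1 in 20 for a single set. Several sets share the same counts, so the share of 8.33% cannot be read against that rate. Naive WT 3 had 0.534% of its counts in mitochondrial protein-coding genes (0.212 to 0.264% in the other 3) and 44.0 CPM of mt-Nd6 (22.2 to 24.6). Naive old 1 had 0.00506% in mitochondrial tRNA genes (0.00126 to 0.00178%) and 39.9 CPM of mt-Tv (6.82 to 9.77). Day 35 KO 2 had 92.4% of its mitochondrial counts in rRNA (90.9 to 91.1%) and 12.2 rRNA counts per protein-coding count (10.1 to 10.2). In day 35 KO 3, mt-Nd6 made up 0.678% of mitochondrial protein-coding counts (1.01 to 1.04%). Naive KO 4 had an mt-Rnr2 to mt-Rnr1 ratio of 1.68 (1.76 to 1.77). Day 21 KO 3 had 691 CPM of mt-Nd2 (764 to 769). Day 35 WT 2 had 1.22 CPM of mt-Nd3 (2.72 to 2.97), and day 35 WT 1 had 0.858 CPM of mt-Tp (2.35 to 2.60).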

How the results depend on the processing

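The 36 called member changes had 553 values under the alternatives, of which 428 stayed past the threshold in the same direction, 125 did not pass and 0 reversed; 39 alternative values of the 160 uncalled changes passed. The shares of all genes called are not given for the alternatives. Counts of called members that moved, causes not tested, were as follows. Between day 21 KO and WT, 0 became 1 by DESeq2's Wald test, 1 with index and 1 with RNA integrity in the model, and 7 with the compared groups alone. Between day 35 KO and WT, 0 became 1 with the groups alone. At day 21 in WT against naive, 9 became 4 with the groups alone. At day 35 in WT, 6 became 1 without the filter, 2 with day 35 WT 3 moved to KO, 2 with the groups alone, 10 with naive WT 3 and day 35 old 1 left out, and 1 to 10 when single libraries were left out. From day 21 to day 35 in KO, 1 became 2 by DESeq2, without the filter, with index and with day 35 WT 3 moved, 3 with the groups alone, and 0 to 1 leaving out single libraries. Between naive old and WT, 0 became 3 without naive WT 3 and day 35 old 1, and 0 to 3 leaving out single libraries. Between day 35 old and WT, 0 became 1 by DESeq2, with index and with RNA integrity. In old mice at day 35 against naive, 11 became 4 without the filter, 1 with the groups alone and 2 to 7 leaving out single libraries. Of the share comparisons 3 alternative values moved by more than the spread: protein-coding genes alone gave a log2 ratio of 0.39 for day 35 KO against WT and 0.25 for day 35 old against WT, and leaving rRNA out gave 0.30 for the latter. No paired analysis was possible because the labels carry no replicate numbers that tie libraries of different groups; numbers follow accession order. The i5 index, of which a group holds each number at most 1 time, was fitted as a block, with the counts given above as with index. tRNA genes had 32 to 384 counts per library in all, which limits the precision of their values.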

Other observations

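Of 15 tested genes that maintain mitochondrial DNA, 2 were higher and 4 lower at day 21 than in naive KO (13.3% and 26.7%, against 22.5% and 22.7% of all genes), with the nuclease and helicase Dna2 higher (log2 fold change 2.89, adjusted p = 2.24e-07), the mitochondrial nuclease Mgme1 at 14.4 against 34.7 (-1.26, adjusted p = 1.28e-07) and the polymerase Polg higher (0.68, adjusted p = 2.31e-06). In old mice at day 35, 4 were higher and 0 lower (26.7% higher, against 10.4% of all genes), among them Polg2, the accessory subunit of that polymerase, at 25.0 against 8.88 CPM (1.49, adjusted p = 0.000761). In WT, 1 was higher and 1 lower at day 21 and 1 higher at day 35.

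Of 9 biogenesis regulators, 1 was higher and 1 lower at day 21 in WT, 2 higher and 0 lower at day 35 in WT, 2 higher and 3 lower at day 21 in KO, and 1 higher and 0 lower in old mice. Gabpa, a transcription factor subunit, was lower at day 21 in WT (63.4 against 84.6 CPM, -0.41, adjusted p = 0.00587) and in KO (52.5 against 76.0, -0.53, adjusted p = 6.37e-05). The coactivator gene Ppargc1b was higher in EAE than in naive animals at day 21 in WT (14 against 5.50 CPM, 1.32, adjusted p = 0.000362), at day 35 in WT (1.08, adjusted p = 0.00266), at day 21 in KO (25.5 against 8.94, 1.51, adjusted p = 2.85e-06) and in old mice (1.21, adjusted p = 0.00142), and at day 21 in KO against WT (0.87, adjusted p = 0.00987). Of 18 mitophagy genes, 1 was higher and 5 lower (27.8%) at day 21 in WT, 0 higher and 6 lower (33.3%) at day 35 in WT, 4 higher and 7 lower (38.9%) at day 21 in KO, and 2 higher and 3 lower (16.7%) in old mice, where 12%, 10.7%, 22.7% and 8.03% of all genes were called lower. Pink1, a kinase that marks damaged mitochondria, was lower in each of these 4 comparisons (21.9 against 41.8 CPM at day 21 in KO, -0.93, adjusted p = 4.58e-06). The deubiquitinase gene Usp30, which opposes that pathway, was higher in 3 of them (66.4 against 35.7 CPM at day 21 in KO, 0.89, adjusted p = 7.98e-07). The shares of all genes called in these comparisons stand beside the mitochondrial counts above.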
